A study of Mus musculus with 8 samples.

Results

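The enzymes and carriers that oxidise fatty acids in mitochondria and peroxisomes were followed as 30 listed mouse genes. Each gene was represented by the probe set that carries its symbol alone and has the highest mean intensity over the arrays, which gave 29 measured genes among the 18193 genes tested. The remaining gene was Cpt1b, the muscle-type carnitine palmitoyltransferase 1, whose probe set also carries other symbols. Of the measured genes, 19 encode mitochondrial proteins, 7 peroxisomal proteins, 2 proteins found in both (Crat and Eci2) and 1 a cytosolic protein (Acot1). The list was drawn up by function and no measured value was a criterion, but earlier results of these data were known. No test of the set was therefore made.

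The RNA came from 3T3-L1 adipocytes, fat cells grown from a mouse fibroblast line, made insulin resistant in 3 ways. The CI model received chronic insulin (2 arrays), the TNF model tumour necrosis factor, an inflammatory cytokine (3 arrays), and the Dex model the synthetic glucocorticoid dexamethasone (3 arrays). All 8 samples, the CI samples included, also received the manganese porphyrin antioxidant MnTBAP for the final 6 hours. Samples without MnTBAP and untreated adipocytes were not analysed here, so each difference is between 2 insulin resistant models and has no untreated baseline. Whether the arrays of a model stand for separate cultures is not stated in the labels, and the p-values therefore reflect a spread that may be technical. In a culture extracted as a whole, fewer fat cells and less RNA per fat cell cannot be told apart.

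Long-chain fatty acids enter mitochondria as carnitine esters. Cpt1 enzymes make the ester on the outer membrane, Slc25a20 carries it across the inner membrane and Cpt2 returns it to coenzyme A. Each turn of the mitochondrial cycle then uses an acyl-CoA dehydrogenase chosen by chain length, a hydratase, a second dehydrogenase and a thiolase, and electrons pass through the electron transfer flavoprotein to ubiquinone. Peroxisomes shorten very long and branched chains with their own enzymes, beginning with an oxidase that makes hydrogen peroxide, and hand shortened chains back as carnitine esters. In white fat cells this pathway runs beside a much larger traffic of fatty acids into and out of stored triglyceride, and it is known as a target of PPAR nuclear receptors and their coactivator PGC-1alpha.

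The proximal promoters of 24 members were matched by symbol in RefSeq sequences of mouse build GRCm38.p6, each reaching from 250 bases before to 50 after the gene start. The stretches below are the 250 bases before the start, 5′ to 3′ along the gene's own strand. They are shown because Cpt2, Acadvl, Etfdh and Ehhadh had the largest falls in the TNF model against CI, and because Hadha and Hadhb, which encode the alpha and beta subunits of the mitochondrial trifunctional protein, start head to head. Their starts lie 273 bases apart, so the Hadhb stretch lies between both genes. Capitals mark the GC box GGGCGG, read on either strand, in Hadhb and Cpt2; the GC box and the CCAAT box (CCAAT) in Ehhadh; a nuclear receptor half-site (AGGTCA) in Acadvl; and the element of the factor NRF1 (GCGCA, any base, then GCGC) in Etfdh.
Hadhb, chr5:30155003-30155252, plus strand: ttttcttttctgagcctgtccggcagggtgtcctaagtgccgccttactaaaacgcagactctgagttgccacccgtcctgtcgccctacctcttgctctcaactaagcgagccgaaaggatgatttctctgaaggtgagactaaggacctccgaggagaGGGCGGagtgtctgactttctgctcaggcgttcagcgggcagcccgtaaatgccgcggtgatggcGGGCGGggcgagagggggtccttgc
Cpt2, chr4:107923590-107923839, minus strand: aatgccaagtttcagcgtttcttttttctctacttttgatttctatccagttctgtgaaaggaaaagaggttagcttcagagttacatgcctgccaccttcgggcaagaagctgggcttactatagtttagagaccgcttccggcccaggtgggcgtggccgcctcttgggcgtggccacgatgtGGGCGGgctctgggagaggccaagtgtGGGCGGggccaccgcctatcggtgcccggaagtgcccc
Ehhadh, chr16:21787835-21788084, minus strand: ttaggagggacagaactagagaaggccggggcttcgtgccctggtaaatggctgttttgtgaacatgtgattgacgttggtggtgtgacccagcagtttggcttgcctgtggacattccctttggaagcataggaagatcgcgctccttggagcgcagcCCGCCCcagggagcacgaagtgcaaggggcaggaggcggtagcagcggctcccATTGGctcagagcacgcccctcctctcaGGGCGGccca
Acadvl, chr11:70015429-70015678, minus strand: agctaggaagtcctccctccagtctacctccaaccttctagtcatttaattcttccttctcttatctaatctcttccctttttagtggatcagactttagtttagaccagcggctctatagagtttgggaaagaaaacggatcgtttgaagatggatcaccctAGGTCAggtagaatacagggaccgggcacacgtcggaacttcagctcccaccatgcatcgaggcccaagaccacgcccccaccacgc
Etfdh, chr3:79628768-79629017, minus strand: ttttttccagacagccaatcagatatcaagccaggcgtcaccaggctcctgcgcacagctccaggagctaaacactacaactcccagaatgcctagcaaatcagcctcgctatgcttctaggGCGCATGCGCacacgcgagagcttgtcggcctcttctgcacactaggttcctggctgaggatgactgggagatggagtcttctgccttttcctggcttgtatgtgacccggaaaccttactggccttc

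Letters were searched on both strands of the whole window. GGGCGG was found in 19 of the 24 member promoters (79.2%), against 46.3% of 17491 protein-coding promoters, and CCAAT in 12 of 24, against 39.0%. The member promoters were also richer in G and C, with a median of 60.5% against 56.3%, so the GC box count and base composition cannot be told apart. The Hadha and Hadhb windows share 228 bases and count as 2 promoters, with 1 GC box common to both. AGGTCA was found in 4 members, Acadm, Echs1, Acadvl and Cpt1a (16.7%, against 14.5%). The NRF1 element was found in Etfdh and Etfb (8.33%, against 6.6%). The direct repeat of AGGNCA with 1 base between, the estrogen-related receptor element (TCA followed by the half-site, so the 2 overlap), the glucocorticoid element (GNACA, any 3 bases, then TGTNC) and the NF-kB element (GGGNN followed by TTTCC) were found in 0 of the 24 windows. These 4 sets of letters were in 0.36%, 0.332%, 0.44% and 1.56% of all promoters. A match is a description of the sequence only.

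Expression across the module was lowest in the TNF model. The TNF mean was the lowest of the 3 group means for 25 of 29 members (86.2%), against 29.3% of all genes, and for all 19 mitochondrial members. It was the highest for 0 members, whereas CI was highest for 14 and Dex for 15. After each gene was centred on its mean over the 8 arrays, the mean over all members was 0.11 and 0.17 in the CI arrays, -0.29, -0.20 and -0.21 in the TNF arrays, and 0.12, 0.15 and 0.15 in the Dex arrays. The 3 TNF arrays therefore sat apart from the other 5, with TNF replicate 1 the lowest, while the CI and Dex arrays overlapped.

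**Figure D1:**
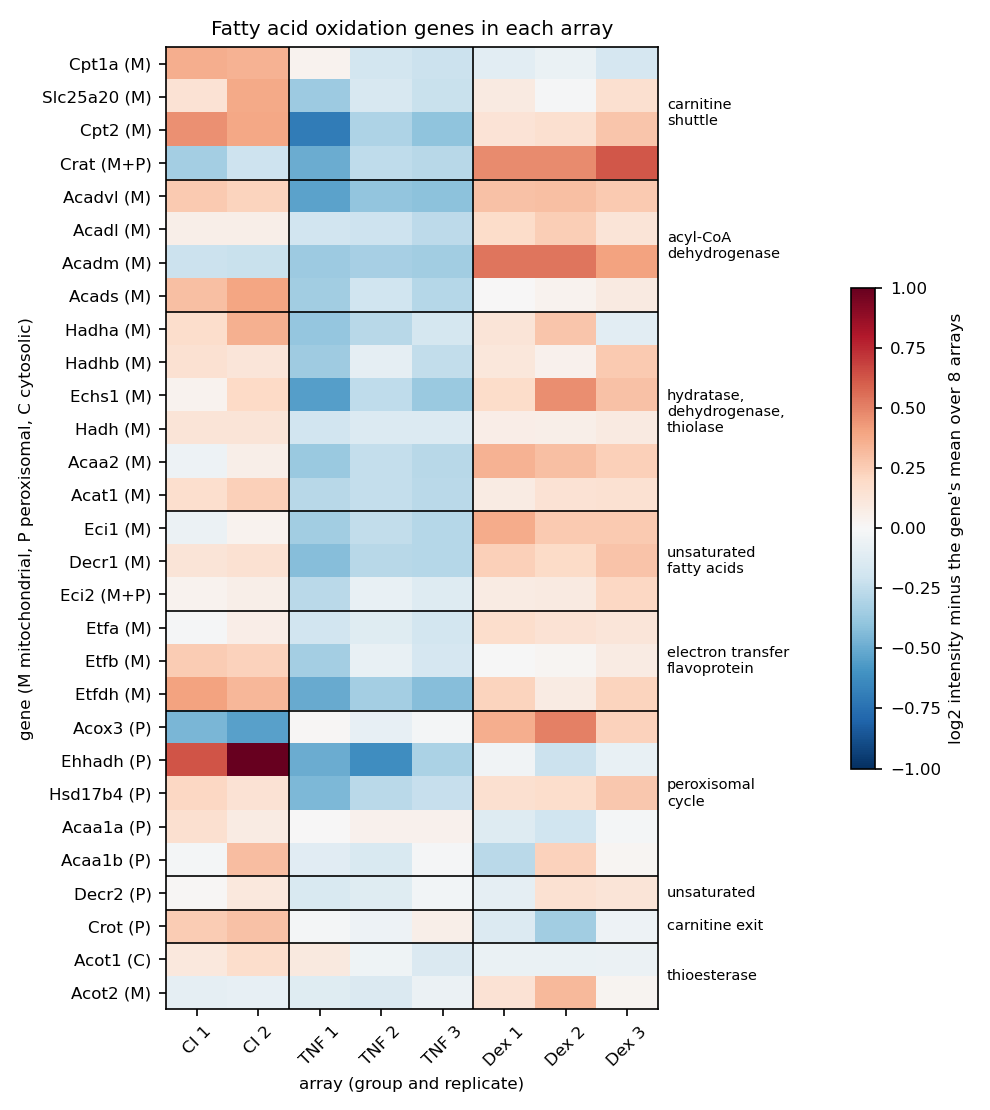
Heat map of the log2 intensity of each of 29 measured genes (rows, grouped by step) in each of 8 arrays (columns), minus the gene's mean over the arrays; red is above that mean and blue below, and the colour scale is clipped at -1 and 1. All 19 mitochondrial genes had their lowest group mean in TNF, and Acadm, Crat and Acox3 were highest in all 3 Dex arrays.

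A gene was called at a limma adjusted p under 0.05 (Benjamini-Hochberg over all genes) and a log2 difference over 0.5 in either direction. In TNF against CI, 8 of 29 members (27.6%) fell and 0 rose, against 5.25% of all genes that fell and 3.01% that rose. Those that fell were Slc25a20, Cpt2, Acadvl, Acads, Hadha, Echs1, Etfdh and Ehhadh. The median log2 difference over the members was -0.30, against 0.03 over all genes, and 28 of 29 differences were negative. Without the minimum difference, 18 members passed the adjusted p in the lower direction, against 13.3% of all genes, so 10 of them were lower by no more than 0.5, and 1 (Acox3) passed in the higher direction, against 9.75%. The lower values did not overlap with CI in 25 members, against 24.7% of all genes, and the TNF arrays lay above CI in 1 member, against 28.3%. With arrays centred on the median 12 members fell, while over all genes 447 were higher and 1186 lower. By quantile normalization 5 fell, without Slc25a20, Hadha and Echs1, and the split of all genes moved from 548 higher and 956 lower to 637 higher and 730 lower.

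In Dex against CI the module moved little as a group. Crat, Acadm and Acox3 rose (10.3% of members, against 3.33% of all genes) and Ehhadh fell (3.45%, against 5.69%), and the median log2 difference was 0.00, against 0.02 over all genes. By adjusted p alone 5 members were higher and 4 lower, against 9.21% and 12.4% of all genes. Dex arrays lay entirely above CI in 10 members and entirely below in 11, against 24.9% and 23.1%. Between the 2 non-CI models, 10 members were lower in TNF than in Dex (34.5%, against 3.17% of all genes) and 0 were higher (against 4.15%). These were Cpt2, Crat, Acadvl, Acadm, Echs1, Acaa2, Eci1, Decr1, Etfdh and Hsd17b4, and the median log2 difference was -0.37, against 0.01. By adjusted p alone 21 were lower and 0 higher, against 10.8% and 10.1% of all genes. TNF arrays lay entirely below Dex in 23 members and entirely above in 1, against 17.9% and 18.0%. Each model enters 2 of the 3 comparisons, so they are not independent. In all, 14 members were called in none of the 3 comparisons, and 4 (Cpt2, Acadvl, Echs1 and Etfdh) were lower in TNF against both other models.

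**Figure D2:**
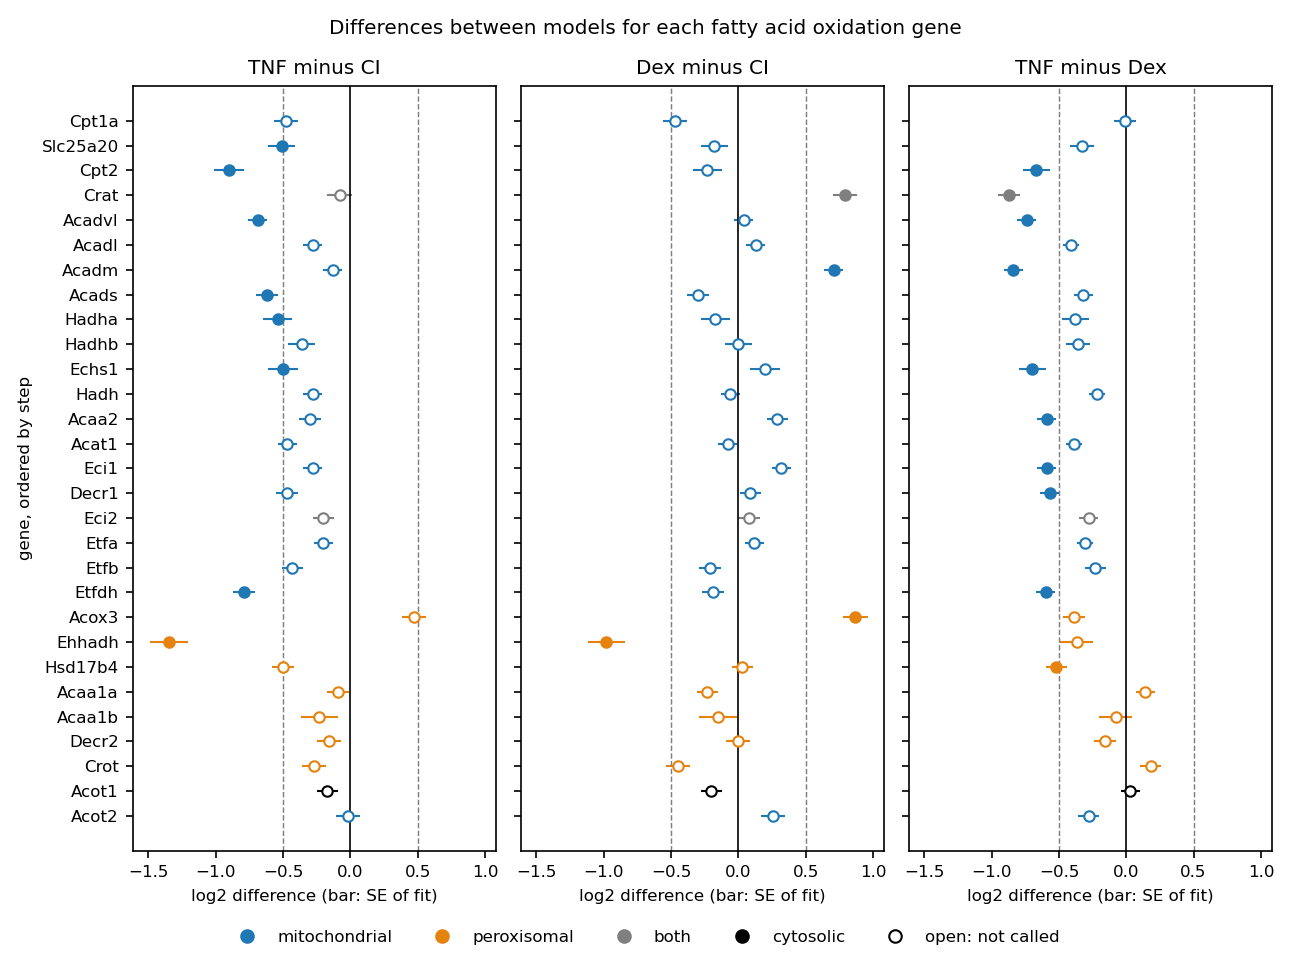
Log2 difference of each gene (points) with the standard error of the fit (bars) in the 3 comparisons; colour gives the compartment, filled points were called, and dashed lines mark the minimum difference of 0.5. The TNF minus CI panel has 8 called points, all below 0; the Dex minus CI panel has 3 above and 1 below; and the TNF minus Dex panel has 10 below.

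The carnitine shuttle differed gene by gene. Values per array are log2 intensities. Cpt1a, the liver-type enzyme that controls entry of long chains, read 10.92 and 10.90 in the CI arrays, 10.59, 10.37 and 10.34 in the TNF arrays, and 10.45, 10.49 and 10.39 in the Dex arrays. Both TNF and Dex arrays lay below CI and overlapped each other. The difference was -0.48 ± 0.09 (SE) in TNF against CI (limma adjusted p = 0.00243) and -0.47 ± 0.09 in Dex against CI (limma adjusted p = 0.00238), each just within the minimum difference and therefore not called, and -0.01 ± 0.08 in TNF against Dex. Without TNF replicate 1, the highest of the TNF arrays, Cpt1a was called lower in TNF than in CI, at -0.56.

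Cpt2, the inner membrane enzyme, read 12.23 and 12.16 in the CI arrays, 11.07, 11.46 and 11.37 in the TNF arrays, and 11.91, 11.93 and 12.05 in the Dex arrays. All TNF arrays lay below all others. Cpt2 fell by 0.90 ± 0.11 in TNF against CI, a 1.86-fold lower intensity (limma adjusted p = 0.000179), and was lower in TNF than in Dex by a log2 difference of -0.67 ± 0.10 (limma adjusted p = 0.000445), although with the mean of its probe sets the latter was -0.49 and not called. The Dex arrays were also below CI, but that difference of -0.23 ± 0.11 was not called.

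Slc25a20, the carnitine-acylcarnitine carrier, read 9.84 and 10.07 in the CI arrays, 9.33, 9.53 and 9.47 in the TNF arrays, and 9.78, 9.68 and 9.85 in the Dex arrays. The TNF arrays were lowest and the Dex arrays overlapped CI. Its fall of 0.51 ± 0.10 in TNF against CI (limma adjusted p = 0.00307) lay close to the minimum difference. Leaving out CI replicate 2 gave -0.39 and leaving out TNF replicate 1 gave -0.45, and neither was called.

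Crat, carnitine acetyltransferase, which buffers short acyl groups, followed another order. It read 10.94 and 11.07 in the CI arrays, 10.78, 11.02 and 11.00 in the TNF arrays, and 11.75, 11.75 and 11.90 in the Dex arrays. The Dex arrays stood above the other 5, which overlapped. Crat rose by 0.79 ± 0.09 in Dex against CI, 1.73-fold (limma adjusted p = 9.61e-05), and was lower in TNF than in Dex by a log2 difference of -0.87 ± 0.08 (limma adjusted p = 2.14e-05), while the TNF difference from CI was -0.08 ± 0.09.

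The 4 chain-length acyl-CoA dehydrogenases split in the same data. Acadvl, for very long chains, read 12.16 and 12.12 in the CI arrays, 11.36, 11.50 and 11.49 in the TNF arrays, and 12.19, 12.20 and 12.16 in the Dex arrays. The TNF arrays were lower than all others, and the CI and Dex arrays lay within 0.1 of one another. Acadvl fell by 0.69 ± 0.07 in TNF against CI (limma adjusted p = 7.9e-05) and was lower in TNF than in Dex, at -0.74 ± 0.07 (limma adjusted p = 1.31e-05).

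Acadm, for medium chains, read 12.42 and 12.41 in the CI arrays, 12.27, 12.30 and 12.28 in the TNF arrays, and 13.17, 13.17 and 13.03 in the Dex arrays. Here the Dex arrays stood highest. Acadm rose by 0.71 ± 0.07 in Dex against CI, 1.63-fold (limma adjusted p = 3.83e-05). It was lower in TNF than in Dex, at -0.84 ± 0.07 (limma adjusted p = 4.71e-06), whereas its difference in TNF against CI was -0.13 ± 0.07 (limma adjusted p = 0.221).

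Acads, for short chains, read 11.47 and 11.56 in the CI arrays, 10.82, 10.97 and 10.88 in the TNF arrays, and 11.17, 11.20 and 11.26 in the Dex arrays. The 3 models did not overlap, with TNF lowest and CI highest. Acads fell by 0.62 ± 0.08 in TNF against CI (limma adjusted p = 0.000218), and its difference of -0.30 ± 0.08 in Dex against CI was not called. The long-chain enzyme Acadl was called in no comparison, with log2 differences of -0.28 in TNF against CI, 0.13 in Dex against CI and -0.41 in TNF against Dex. Across the 4 dehydrogenases Dex minus CI thus ranged from -0.30 for Acads to 0.71 for Acadm.

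**Figure D3:**
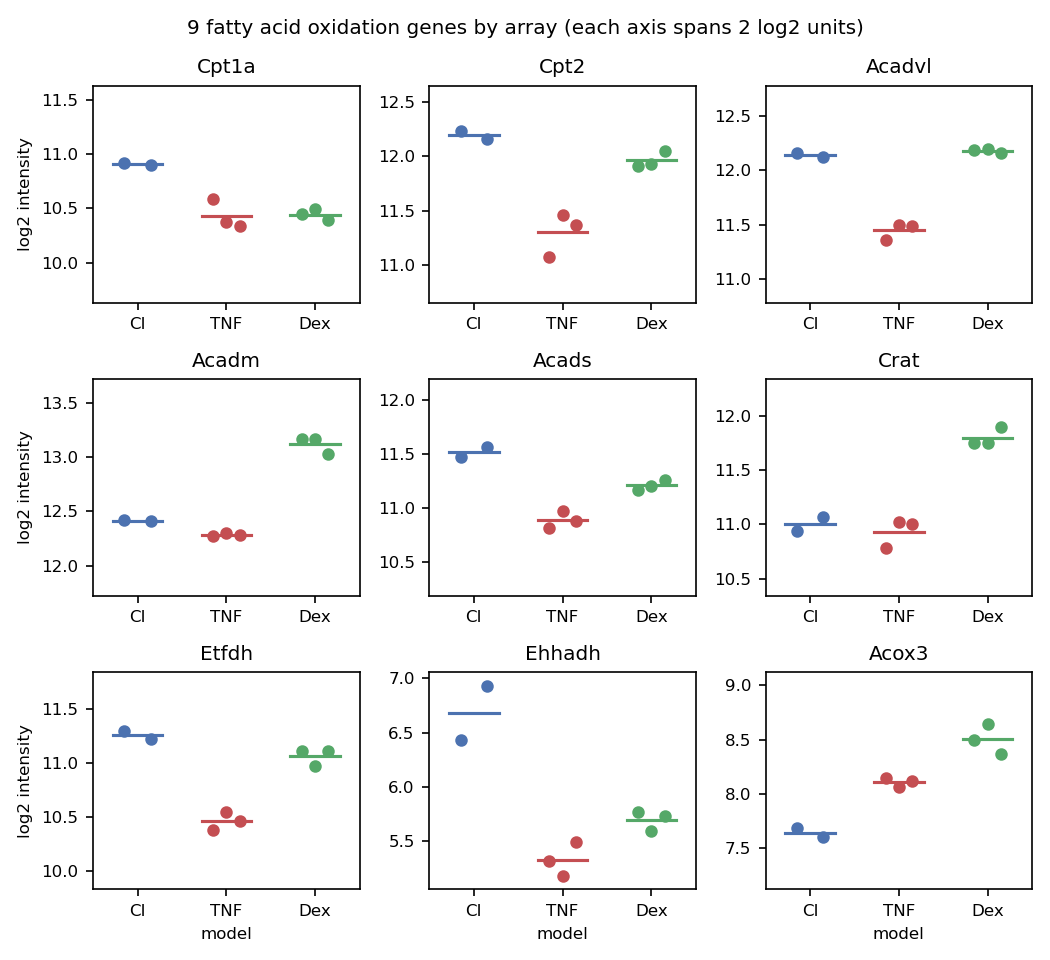
Log2 intensity (vertical axis, 2 log2 units high in every panel) of 9 genes in the CI, TNF and Dex arrays; points are arrays and lines are group means. Cpt2, Acadvl and Etfdh were lowest in TNF, Acadm and Crat highest in Dex, and Cpt1a and Ehhadh highest in CI.

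The 6 genes for the hydratase, second dehydrogenase and thiolase steps were lower in TNF than in CI in every array, with log2 differences between -0.54 and -0.28, and 2 of them were called. Hadha, the trifunctional protein subunit with hydratase and dehydrogenase activity, read 11.82 and 12.00 in the CI arrays, 11.26, 11.37 and 11.47 in the TNF arrays, and 11.77, 11.92 and 11.54 in the Dex arrays. The TNF arrays were below both other models, and Dex overlapped CI. Hadha fell by 0.54 ± 0.11 in TNF against CI (limma adjusted p = 0.00532), but was not called without CI replicate 2, at -0.45 (limma adjusted p = 0.0721), or without TNF replicate 1, at -0.49.

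Echs1, the short-chain hydratase, read 11.49 and 11.66 in the CI arrays, 10.91, 11.20 and 11.09 in the TNF arrays, and 11.64, 11.92 and 11.75 in the Dex arrays. Again the TNF arrays were lowest. Echs1 fell by 0.50 ± 0.11 in TNF against CI (limma adjusted p = 0.00638), not called without CI replicate 2, at -0.42 (limma adjusted p = 0.0811), or without TNF replicate 1, at -0.43. It was lower in TNF than in Dex, at -0.70 ± 0.10 (limma adjusted p = 0.000332), under every setting apart from a minimum difference of 1.

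Acaa2, the mitochondrial 3-ketoacyl-CoA thiolase, read 10.87 and 10.98 in the CI arrays, 10.55, 10.68 and 10.64 in the TNF arrays, and 11.27, 11.22 and 11.16 in the Dex arrays. The 3 models did not overlap, with Dex highest. Acaa2 was lower in TNF than in Dex, at -0.59 ± 0.07 (limma adjusted p = 0.000106). Hadhb, the trifunctional protein's thiolase subunit, Hadh, the short-chain hydroxyacyl-CoA dehydrogenase, and Acat1, the acetoacetyl-CoA thiolase, were called in no comparison. Their log2 differences in TNF against CI were -0.36, -0.28 and -0.47, and in Dex against CI 0.00, -0.06 and -0.08.

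Unsaturated chains need isomerases and a reductase to rejoin the cycle, and 2 of the 4 such genes were called in TNF against Dex. Eci1, a mitochondrial enoyl-CoA isomerase, read 11.03 and 11.12 in the CI arrays, 10.74, 10.84 and 10.80 in the TNF arrays, and 11.46, 11.35 and 11.35 in the Dex arrays. The 3 models did not overlap, with TNF lowest and Dex highest, and the TNF minus Dex difference was -0.59 ± 0.07 (limma adjusted p = 7.85e-05). Decr1, the mitochondrial 2,4-dienoyl-CoA reductase, read 12.10 and 12.12 in the CI arrays, 11.54, 11.69 and 11.68 in the TNF arrays, and 12.21, 12.16 and 12.25 in the Dex arrays. TNF lay below both, with a difference of -0.57 ± 0.07 from Dex (limma adjusted p = 0.000118) and -0.47 ± 0.08 from CI, the latter not called. Eci2, an isomerase of both organelles, and Decr2, the peroxisomal reductase, were called in no comparison and differed by -0.20 and -0.16 in TNF against CI.

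Of the 3 genes that carry electrons from the dehydrogenases to ubiquinone, the last in the chain differed most. Etfdh, the ubiquinone oxidoreductase, read 11.29 and 11.22 in the CI arrays, 10.38, 10.55 and 10.46 in the TNF arrays, and 11.11, 10.97 and 11.11 in the Dex arrays. All TNF arrays were below all others. Etfdh fell by 0.79 ± 0.08 in TNF against CI, 1.73-fold (limma adjusted p = 5.92e-05), and was lower in TNF than in Dex, at -0.60 ± 0.07 (limma adjusted p = 0.000124). With the mean of all its probe sets, one of them dim, these differences were -0.34 and -0.38 and neither was called. The flavoprotein subunits Etfa and Etfb were not called, with log2 differences in TNF against CI of -0.20 and -0.43.

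The peroxisomal genes moved in different directions. Acox3, an acyl-CoA oxidase for branched chains, read 7.68 and 7.60 in the CI arrays, 8.15, 8.06 and 8.12 in the TNF arrays, and 8.50, 8.64 and 8.37 in the Dex arrays. CI was lowest and the 3 models did not overlap. Acox3 rose by 0.87 ± 0.09 in Dex against CI, 1.82-fold (limma adjusted p = 3.49e-05). It was the 1 member with a positive difference in TNF against CI, 0.47 ± 0.09 (limma adjusted p = 0.00291), within the minimum difference. Without CI replicate 1 that difference was 0.51 and was called.

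Ehhadh, the peroxisomal bifunctional hydratase and dehydrogenase, was highest in CI, where Acox3 was lowest. It read 6.43 and 6.93 in the CI arrays, 5.31, 5.18 and 5.49 in the TNF arrays, and 5.77, 5.59 and 5.73 in the Dex arrays. Both CI arrays lay above all others, although they differed by 0.5 from each other. Ehhadh fell by 1.35 ± 0.14 in TNF against CI, 2.56-fold (limma adjusted p = 5.92e-05), and by 0.98 ± 0.14 in Dex against CI, 1.97-fold (limma adjusted p = 0.000381). Its probe set was below the median gene in every array and left the fit when the lowest 25% of genes were removed. With an offset of 50 added to the intensity its differences were -0.76 and -0.59, so the size of its change depended on how dim values are treated.

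Hsd17b4, the other peroxisomal bifunctional enzyme, was lowest in TNF. It read 11.02 and 10.96 in the CI arrays, 10.36, 10.54 and 10.58 in the TNF arrays, and 10.97, 10.99 and 11.08 in the Dex arrays. TNF lay below both other models, which overlapped. The difference was -0.52 ± 0.08 in TNF against Dex (limma adjusted p = 0.000477) and -0.50 ± 0.08 in TNF against CI (limma adjusted p = 0.00169), the first just past and the second just within the minimum difference. In TNF against Dex it was not called without TNF replicate 1, at -0.45, or without Dex replicate 3, at -0.49, nor by quantile normalization (-0.48), with the mean of all probe sets (-0.47) or with array weights (-0.47).

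Crot, which makes carnitine esters of shortened chains for export from the peroxisome, was highest in CI, overlapped between TNF and Dex, and was not called. Its log2 difference was -0.45 in Dex against CI and -0.27 in TNF against CI. A second, dimmer probe set of Crot went the other way and was not called. It gave 0.16 in Dex against CI and 0.28 in TNF against CI (limma adjusted p = 0.0396, over all probe sets). The peroxisomal thiolases Acaa1a and Acaa1b were not called, with TNF minus CI differences of -0.09 and -0.23. The 2 genes are near-identical and lie on the same chromosome, and 2 further probe sets carry both symbols, so the signal of each gene is uncertain. The brighter of these shared probe sets read 12.02 and 12.04 in the CI arrays, 11.55, 11.70 and 11.72 in the TNF arrays, and 11.69, 11.67 and 11.66 in the Dex arrays, which put both other models below CI.

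Acyl-CoA thioesterases release free fatty acid from coenzyme A. Acot2, the mitochondrial form, read 10.85 and 10.86 in the CI arrays, 10.82, 10.80 and 10.88 in the TNF arrays, and 11.09, 11.27 and 10.97 in the Dex arrays, and its difference of 0.26 ± 0.09 in Dex against CI was not called (limma adjusted p = 0.0604). TNF overlapped CI, with a difference of -0.02 ± 0.09, the smallest in size among the members in that comparison. Acot1, the cytosolic form, read 5.72 and 5.79 in the CI arrays, 5.71, 5.57 and 5.47 in the TNF arrays, and 5.55, 5.55 and 5.56 in the Dex arrays. It was below the median gene in every array, as was Acaa1b, and was not called. Acot1 and Acot2 are close relatives as well, and neighbours, so their separation by probe set is uncertain.

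Set side by side, the mitochondrial members had a median log2 difference of -0.47 in TNF against CI, 0.00 in Dex against CI and -0.39 in TNF against Dex. The peroxisomal medians were -0.23, -0.15 and -0.16. In TNF against CI 7 of 19 mitochondrial and 1 of 7 peroxisomal members fell, beside 5.25% of all genes, and in TNF against Dex 8 of 19 and 1 of 7 were lower, beside 3.17%. The centred mean of the mitochondrial genes was 0.14 and 0.18 in the CI arrays, -0.34, -0.22 and -0.27 in the TNF arrays, and 0.17, 0.19 and 0.16 in Dex. That of the peroxisomal genes was 0.11 and 0.22 in the CI arrays, -0.17, -0.18 and -0.07 in the TNF arrays, and -0.02, 0.04 and 0.07 in Dex. TNF was below both other models in each compartment. The Dex arrays overlapped CI for the mitochondrial genes and lay below CI for the peroxisomal genes. That peroxisomal separation depended on Ehhadh, which was below the median gene in every array and had the lowest Dex minus CI difference, -0.98. Of the 7 peroxisomal genes, 4 had a negative and 3 a positive difference in Dex against CI. Crat and Eci2 were left out of both sets. With them counted as peroxisomal, the mitochondrial median minus the peroxisomal median moved from -0.23 to -0.11 in TNF against Dex and from 0.15 to 0 in Dex against CI. Without CI replicate 2 the latter was -0.01. These differences between compartments were not tested.

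**Figure D4:**
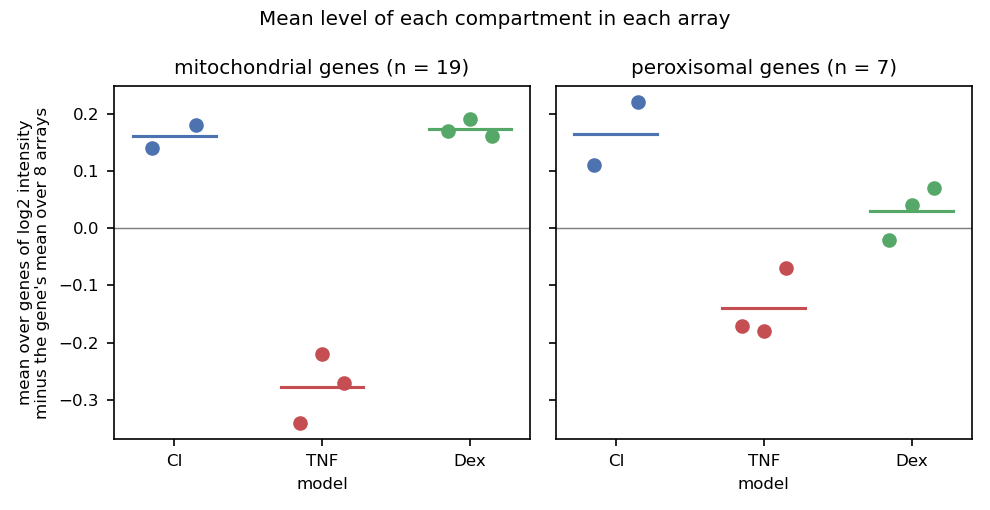
Mean over genes of the log2 intensity minus each gene's mean over the 8 arrays (vertical axis), for 19 mitochondrial and 7 peroxisomal genes; points are arrays and lines are group means. TNF arrays lie between -0.34 and -0.22 for mitochondrial genes and between -0.18 and -0.07 for peroxisomal genes, below every CI and Dex array.

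Other probe sets of the same genes gave a further reading. Of the 29 members 16 had more than 1 probe set with a single symbol, 22 probe sets beyond those used. Their sign was that of the brightest probe set in 17 of 22 cases in TNF against CI, 16 of 22 in Dex against CI and 19 of 22 in TNF against Dex, with a median gap of 0.19, 0.15 and 0.11. Some members that were not called by their brightest probe set had another that was, with p adjusted over all probe sets. In TNF against CI, Decr1 was -0.85 (limma adjusted p = 3.58e-05) on its second probe set, Hadhb -0.58 (limma adjusted p = 0.000362) and Acat1 -0.80 (limma adjusted p = 0.000236). That Hadhb probe set, with a mean log2 intensity of 12.20 against 12.39 for the brightest, was also called in TNF against Dex, at -0.63 (limma adjusted p = 6.48e-05). Conversely, the second probe set of Etfdh, the dimmest of the 22 with a mean log2 intensity of 4.28, gave 0.12 in TNF against CI. The second of Acox3 gave 0.24 in Dex against CI, not called. The other 2 probe sets of Crat gave 0.44 and 0.36 in Dex against CI, both below the minimum difference.

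**Figure D5:**
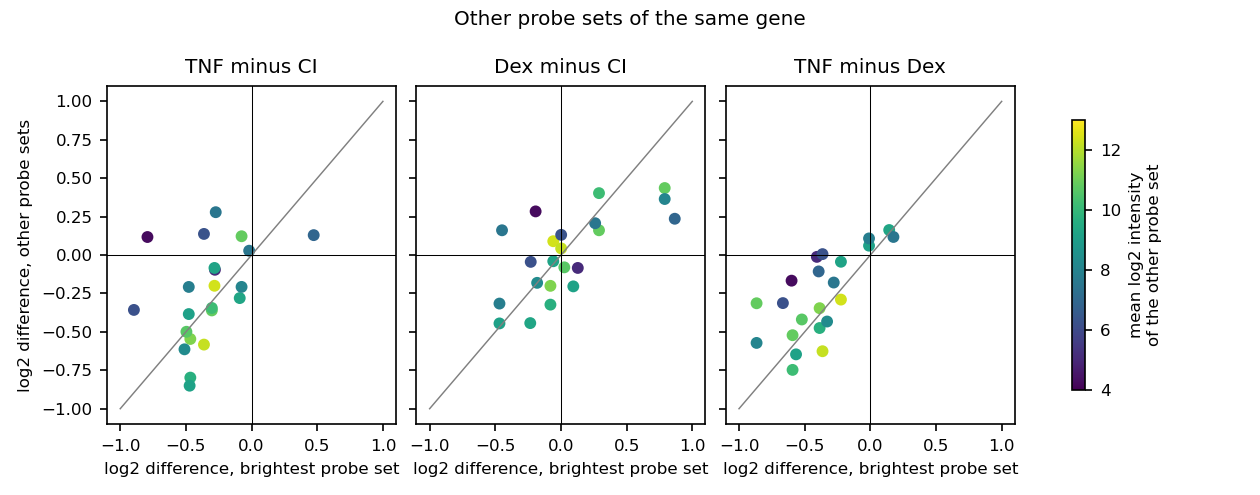
Log2 difference on the brightest probe set of a gene (horizontal) against that on each of its 22 other probe sets (vertical) in the 3 comparisons; colour is the mean log2 intensity of the other probe set and the grey line marks equal values. The sign was shared in 17, 16 and 19 of 22 cases, and the second probe set of Etfdh, the dimmest, gave 0.12 in TNF minus CI.

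Genes that regulate or feed the pathway were read from lists by function, whose counts stand beside 5.25% of all genes lower and 3.01% higher in TNF against CI, and 5.69% and 3.33% in Dex against CI. Of 11 measured regulators, 4 fell in TNF against CI (median -0.23) and none rose. Ppargc1a, which encodes PGC-1alpha, fell by 0.68 ± 0.13 (limma adjusted p = 0.00283), Pparg, the fat cell PPAR, by 0.52 ± 0.08, and Nrip1, a corepressor of oxidative genes, by 1.13 ± 0.21. Ppara and Ppard, the other PPARs, had differences of -0.01 and -0.23. In Dex against CI, 2 regulators rose, Rxra, the partner receptor of PPARs, by 0.77 ± 0.08 and Ppargc1b by 0.58 ± 0.09, and Pparg fell by 0.61 ± 0.08, while Ppara differed by 0.19 and Ppard by 0.05.

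Malonyl-CoA blocks Cpt1 enzymes. Of its 8 measured genes, 2 fell in TNF against CI, Acaca, which makes it, by 0.58 ± 0.12, and Mlycd, which degrades it, by 0.56 ± 0.09 (limma adjusted p = 0.00147). Against CI, Acaca in Dex fell by 0.82 ± 0.12, Mlycd differed by 0.36 ± 0.09 without being called, and Prkab2, a subunit of the AMP-activated kinase, rose by 0.55 ± 0.09. Acacb, the mitochondrial acetyl-CoA carboxylase, differed by 0.21 and 0.28 in the same comparisons and was not called. Among 10 uncoupling genes and PPAR targets none rose or fell in TNF against CI, whereas 4 rose and 1 fell in Dex against CI. The largest rise was that of Pdk4, the kinase that turns off pyruvate dehydrogenase, by 2.93 ± 0.15 (limma adjusted p = 1.79e-07), against 0.04 ± 0.15 in TNF against CI. Ucp1, the brown fat uncoupler, was below the median gene in every array and was not called, and Angptl4 differed by -0.36 and -0.31 without being called.

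The acyl-CoA ligases, which activate fatty acids, were mixed, with 3 of 11 higher and 1 lower in TNF against CI and 3 higher and 2 lower in Dex against CI. Acsl3 was lower in both, with differences of -0.89 ± 0.09 and -1.65 ± 0.09, while Acsm5, below the median gene in every array, was higher in both, with 0.52 ± 0.13 and 1.46 ± 0.13. Of 16 genes for peroxisomal transport and biogenesis, 5 fell in TNF against CI (median -0.39) and 2 in Dex against CI (median -0.23), and none rose in either. Abcd2, a peroxisomal importer of very long acyl-CoAs, fell in both, with differences of -1.67 ± 0.23 and -2.25 ± 0.23, as did Pex16, a membrane biogenesis factor, with -0.51 ± 0.08 and -0.55 ± 0.08. Pex13, of the same list, fell by 0.69 ± 0.08 in TNF against CI, while its difference of -0.25 ± 0.08 in Dex against CI was not called. Of 15 genes of peroxisomal side pathways, 3 fell and 1 rose in TNF against CI, and Scp2, a sterol carrier and thiolase, fell by 0.98 ± 0.08. Of the same genes 2 rose in Dex against CI, Ech1, a dienoyl-CoA isomerase, by 1.03 ± 0.08 and Phyh, which begins the breakdown of phytanic acid, by 0.80 ± 0.09. Of 14 genes for ketone bodies and odd or branched chains, 4 fell in TNF against CI, among them Acad9 and Acad11, relatives of the acyl-CoA dehydrogenases above. In Dex against CI 1 of the 14 fell, Acad9 by 0.56 ± 0.08, and 1 rose, Acad12 by 0.62 ± 0.07. Acsl1 and Ucp2 were not analysed here.

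Some other measures moved with the TNF arrays. Of 12 listed adipocyte markers 11 were measured. In TNF against CI 6 fell, beside 5.25% of all genes, and in Dex against CI 3 fell, beside 5.69%. Adipoq, Fabp4 and Lpl were not called and differed by -0.05, 0.02 and -0.09 in TNF against CI. The mean log2 intensity of the 11 markers was 13.49 in both CI arrays, 13.01 to 13.06 in TNF and 13.26 to 13.33 in Dex. The mean of 10 preadipocyte and fibroblast markers was 11.24 to 11.28 in CI, 11.35 to 11.56 in TNF and 10.65 to 10.73 in Dex. Of these markers 2 rose and 1 fell in TNF against CI, beside 3.01% and 5.25% of all genes, and 5 fell in Dex against CI, beside 5.69%. The mean of 8 macrophage and leukocyte markers was 6.90 to 6.93 in CI, 7.20 to 7.24 in TNF and 6.99 to 7.06 in Dex. In TNF against CI 2 were called higher, beside 3.01% of all genes, Cd14 by 1.44 ± 0.13 and Lyz2 by 0.55 ± 0.07. The median difference over the 8 was 0.09. Adgre1, Cd68, Ptprc, Itgam and Mrc1 lay below the median gene in every array and differed by -0.08 to 0.12. As a sign of RNA integrity, the log2 3′ minus 5′ signal of beta-actin was 0.54 to 0.66 in CI, 0.71 to 0.83 in TNF and 0.49 to 0.75 in Dex. That of Gapdh was 0.14 to 0.16 in CI, 0.08 to 0.14 in TNF and 0.07 to 0.11 in Dex. For pyruvate carboxylase it was 1.73 to 2.04 in CI, 1.90 to 2.53 in TNF and 1.66 to 1.93 in Dex. The 3 controls therefore did not order the models alike. With the beta-actin value as a covariate 8 members were called lower in TNF than in CI. Of these, 6 were among the 8 above, since Hadha and Echs1 were lost and Decr1 and Hsd17b4 gained. Acox3 was then called higher in TNF than in CI, and 10 members were lower in TNF than in Dex. The part of the marker levels in these results was not tested. The arrays had median intensities of 124.7 to 130.97, and their correlation over all probe sets (Pearson's r) was 0.9958 to 0.9978 within a model and 0.9856 to 0.991 between models.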

How the data were processed

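RNA of 8 samples was hybridised to Affymetrix mouse arrays with 45101 probe sets. The authors deposited probe set intensity values on a linear scale, between 6.14 and 24273.6. The study's methods name RMA for this array type, but whether these intensities are antilogs of RMA values is not given in the sources used here. The planned test had assumed log2 values, so log2 of the deposited intensity was taken with no pseudocount and the test was kept. The 64 control probe sets were left out. Names came from GEO's platform annotation, in which 34958 probe sets had 1 symbol, 932 several and 9211 none, and 18193 genes were tested by their brightest single-symbol probe set.

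All 3 groups were fitted together in limma 3.58.1 (R 4.3.3; lmFit, eBayes, two-sided, 5 residual degrees of freedom), which was tested on simulated data. Calls used an adjusted p under 0.05 and a log2 difference over 0.5, as in the study's methods. Precision is limited by the number of arrays, which have no depth. Alternatives were other scalings, filters, probe set rules, thresholds, eBayes settings, array weights, the replicate block, a beta-actin covariate and leaving out each array. Named were all members, with per-array values for members called in any comparison and for Cpt1a, Cpt2, Slc25a20, Ehhadh, Acox3, Acot1 and Acot2. From the lists of pathway genes, a preset group was named, with some of the called genes, mostly those with the largest differences. Values of other probe sets were added after they had been seen. The members and lists were chosen with earlier results of these data known. Figures were drawn with Python 3.11.15 and matplotlib 3.10.9.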

Additional observations from a re-analysis of the deposited data

How the results depend on the processing

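No called difference changed sign under any alternative run. Of 22 calls, 15 held under every scaling, filter, probe set rule, fit and left-out array in which the gene was fitted. The 7 others were Slc25a20, Hadha, Echs1 and Etfdh in TNF against CI and Cpt2, Etfdh and Hsd17b4 in TNF against Dex. Members lower in TNF than in CI numbered 8, and 5 by quantile normalization, 12 with arrays centred on the median, 11 with the probe set of largest interquartile range, 18 with no minimum difference and 1 with a minimum of 1. In the same order, 956, 730, 1186, 1192, 2419 and 133 of all genes were lower. Members higher numbered 0, and 1 (Acox3) with the replicate block, with no minimum difference and with the beta-actin covariate. In Dex against CI, 3 were higher and 1 lower, against 5 and 4 with no minimum difference and 0 and 0 with a minimum of 1; Ehhadh, the 1 lower gene, left the fit with the lowest 25% of genes, giving 0. In TNF against Dex, 10 were lower, against 21 with no minimum difference and 0 with a minimum of 1. The median over members in TNF against CI was -0.30, and -0.35 with arrays centred on the median, -0.34 with the probe set of largest interquartile range and -0.38 with the covariate. For Dex against CI it was -0.06 with array weights, and in TNF against Dex -0.33 with the mean of all probe sets. The mitochondrial minus peroxisomal median was -0.30 in TNF against CI with an offset of 50. For Dex against CI it was 0.15, and 0.22 by quantile normalization, 0.07 without the lowest 25%, 0.23 with array weights and 0 with Crat and Eci2 as peroxisomal. In TNF against Dex it was -0.23, and -0.31 with the probe set of largest interquartile range, -0.29 with array weights and -0.11 with Crat and Eci2 as peroxisomal. The cause of these shifts was not tested.

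With 1 array left out, members lower numbered 6 to 9 in TNF against CI, 1 to 2 in Dex against CI (2 without Dex replicate 3, with Crot added) and 9 to 10 in TNF against Dex, and members higher 0 to 1, 3 to 3 and 0 to 0. The median over members ranged from -0.36 to -0.28, -0.06 to 0.01 and -0.38 to -0.32, and the mitochondrial minus peroxisomal median from -0.29 to -0.17, -0.01 to 0.23 (-0.01 without CI replicate 2) and -0.31 to -0.17. Over all genes, 548 were higher and 956 lower in TNF against CI, 1773 and 2419 with no minimum difference, and 129 and 133 with a minimum of 1. These were 606 and 1036, 1675 and 2254, and 139 and 291 in Dex against CI, and 755 and 576, 1843 and 1964, and 233 and 116 in TNF against Dex. With the replicate number as a block, 9 members were lower in TNF than in CI and 10 in TNF than in Dex. Correlations of deviations between same-numbered arrays of different models were -0.097 to 0.3353, the highest for replicate 1 of TNF and Dex. Between arrays of different numbers they were -0.3869 to 0.2865. The ranges overlapped and did not settle whether the numbers mark a pairing, so the block was kept as an alternative only. Dim probe sets limit the values of Ehhadh, Acaa1b and Acot1.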
